A study of Mus musculus with 11 samples.

Results

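The genes described here encode the subcortical maternal complex, a protein assembly of the oocyte and early embryo, and their transcripts were measured in single mouse embryos at the 8-cell stage. The members were taken by symbol from the known composition of the complex: *Nlrp5*, *Ooep*, *Tle6*, *Khdc3*, *Padi6*, *Nlrp2* and *Zbed3*, 7 of the 54146 genes in the deposited tables. Single-embryo RNA-seq was available for 11 C57BL/6 embryos at embryonic day 2.5, collected after natural mating of *Prdm10*Δ/+ parents. The 6 control embryos were *Prdm10*+/+ or *Prdm10*Δ/+, which the labels do not tell apart, and the 5 mutant embryos were *Prdm10*Δ/Δ, lacking exon 5 of *Prdm10* on both alleles. Both groups thus came from mothers that themselves carried 1 deleted allele, and no embryo came from a wild-type intercross. The allele derived from 1 targeted embryonic stem cell clone, and the exon was removed by crossing to an ACTB-Cre line, in which the beta-actin promoter drives Cre. Genotypes were called from cDNA of each embryo by detection of exon 5. The libraries fall into 2 batches. Batch 1 holds control embryos 4 to 6 and mutant embryos 4 and 5, whose cDNA was amplified over 16 cycles, and batch 2 holds control embryos 1 to 3 and mutant embryos 1 to 3, at 13 cycles. The collection and the number of cycles cannot be told apart, and batch stands for both.

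The subcortical maternal complex forms in the growing oocyte and lies beneath the cell cortex, and after fertilisation it persists in the outer cytoplasm of cleaving blastomeres. Its genes are transcribed in the oocyte. Much of the maternal mRNA store is destroyed during meiotic maturation and the first cleavages, when the embryonic genome takes over, while the proteins last longer. Loss of several of these proteins in the mother arrests her embryos in early cleavage whatever the embryo's own genotype. The levels below are therefore what was left of each transcript, or newly made, at the 8-cell stage, and the tables do not separate maternal from embryonic copies.

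RNA was reverse transcribed from an oligo-dT primer, so that a molecule was captured through its poly(A) tail. Tail length governs the use and decay of oocyte mRNAs, and the hexamer AATAAA, the polyadenylation signal near the 3′ end, directs where the tail is added. For this reason the last 30 bases of the principal annotated transcript of each member are shown, 5′ to 3′ on the gene's own strand, with AATAAA in capitals (GENCODE vM21, GRCm38).
Nlrp5, chr7:23441893-23441922, plus strand: gaatgaAATAAAcacagcatttagaaaagc
Ooep, chr9:78376109-78376138, minus strand: aactcaggaccacaggctatgagtagcata
Tle6, chr10:81590905-81590934, minus strand: agttgcgtgtAATAAAacaattgaaatggc
Khdc3, chr9:73104409-73104438, plus strand: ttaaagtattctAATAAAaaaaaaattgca
Padi6, chr4:140727355-140727384, minus strand: agagccAATAAAgcatggtattctgaatgt
Nlrp2, chr7:5298547-5298576, minus strand: attggggAATAAAagggaaaacatgcatga
Zbed3, chr13:95337812-95337841, plus strand: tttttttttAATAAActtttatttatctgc
The hexamer stood in this window in 6 of the 7 members, starting 18 bases before the end of *Khdc3* and up to 24 before the end of *Nlrp5* and *Padi6*. Among the principal coding transcripts of all genes, 1 per gene, 50.9% (11057 of 21729) held AATAAA on the sense strand in the same window. *Ooep* had no AATAAA anywhere in its single annotated transcript of 2138 bases. These matches describe the annotation only, and the use of a site was not measured.

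All 7 members were detected in at least 5 embryos, at levels that spanned more than 2 orders of magnitude. Levels between genes are compared as TPM, which divides reads by gene length and scales every library to the same total. *Khdc3* (Filia), a KH-domain protein with roles in spindle assembly and genome stability, had the highest mean at 140 ± 90.9 TPM (SD, n = 11). It was followed by *Padi6*, a peptidylarginine deiminase family member needed for the cytoplasmic lattices of the oocyte, at 19.2 ± 8.42 TPM, and *Tle6*, a relative of the Groucho co-repressors, at 14.1 ± 6.9 TPM. *Zbed3*, a BED zinc finger protein that also binds Axin, averaged 10.5 ± 4.55 TPM. *Nlrp5* (Mater), an NLRP-family scaffold of the complex, averaged 3.02 ± 1.81 TPM, and *Ooep* (Floped), another KH-domain subunit, 1.37 ± 0.62 TPM. *Nlrp2*, another NLRP protein, was listed at 0 in 6 of 11 embryos and averaged 0.256 TPM.

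Not every step in this order exceeded the spread between embryos. *Khdc3* was above *Padi6* in 10 of 11 embryos, with a ratio from 0.995 to 21.6 and a median of 6.2. *Padi6* was above *Tle6* in only 7 of 11 embryos, and *Tle6* above *Zbed3* also in 7 of 11, so these 3 neighbours overlapped. *Zbed3* was above *Nlrp5* in 10 of 11, *Nlrp5* above *Ooep* in 8 of 11, and *Ooep* above *Nlrp2* in all 11. Among the genes with a TPM above 0 in the same embryo, *Khdc3* lay between the percentiles 72.2 (control embryo 1) and 97.1 (mutant embryo 5), *Padi6* between 62.5 and 80.1, and *Ooep* between 20.9 and 42.0. The reads behind these levels were 156 to 2392 per embryo for *Khdc3*, 7 to 22 for *Ooep* and 0 to 12 for *Nlrp2*. The plot of TPM by gene shows the order and the overlaps.

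**Figure D1:**
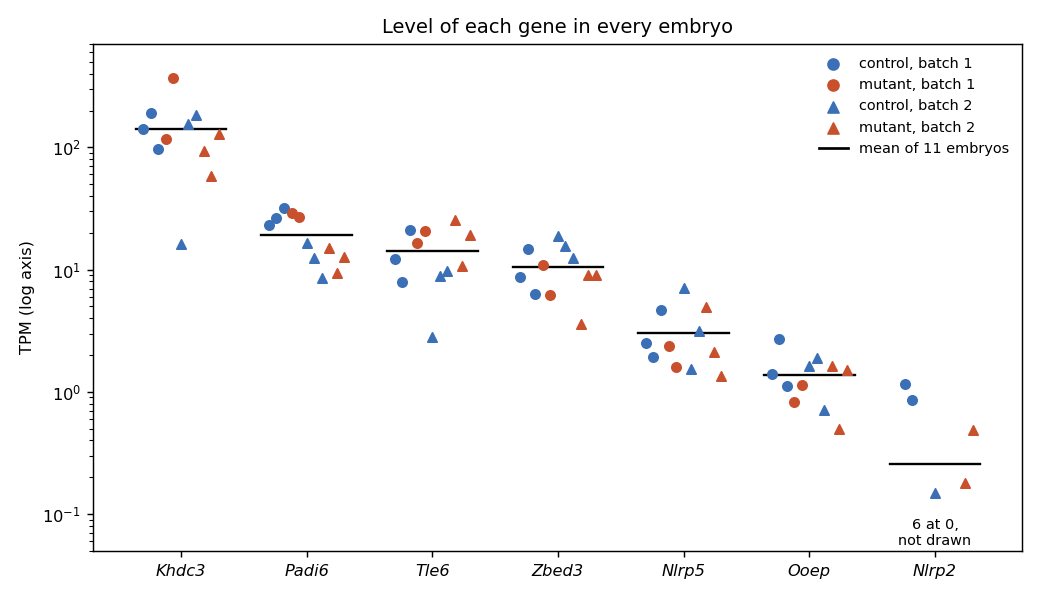
Level of each member in every embryo as TPM on a log axis, blue for control and orange for mutant embryos, circles for batch 1 and triangles for batch 2; black lines are means of 11 embryos and the 6 embryos with *Nlrp2* at 0 are not drawn. *Khdc3* lies above the rest except in control embryo 1 (16.3 TPM), and *Padi6* separates by batch.

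The summed level of the 7 members was 179 ± 63.4 TPM in controls (63.2 to 247, n = 6) and 201 ± 129 TPM in mutants (89.6 to 422, n = 5), ranges that overlapped. *Khdc3* alone made 25.8% to 86.7% of that sum. Without *Khdc3* the sum was 48.4 ± 11.1 TPM in controls and 48.5 ± 11.1 TPM in mutants. By batch the same sum was 56.9 ± 6.67 TPM (batch 1, n = 5) and 41.3 ± 7.25 TPM (batch 2, n = 6), of which *Padi6* alone gave 27.4 ± 3.3 and 12.4 ± 3.1 TPM. The whole group made up 0.00632% to 0.0422% of the transcripts of an embryo by TPM.

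The main comparison asked whether these transcripts stood at different levels, relative to the rest of the library, in *Prdm10*Δ/Δ embryos. None of the 6 members with enough reads for the test (a mean normalised count above 10) was called higher or lower in mutants by DESeq2 with batch as a term (adjusted p under 0.05), and edgeR also called 0. Of all genes tested, 1.42% (148 of 10448) were called. At an unadjusted p under 0.05 there were 2 of 6 members, *Tle6* and *Zbed3*, against 11.9% of all genes tested. The median log2 difference of the 6 was -0.24, with 2 above 0 and 4 below, and that of all genes tested was -0.0012. A normalised count is the RSEM expected count of a gene divided by the size factor of its library. It is therefore relative to the rest of the library. Each library is 1 whole embryo, but neither its number of cells nor its total RNA can be read from these values.

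**Figure D2:**
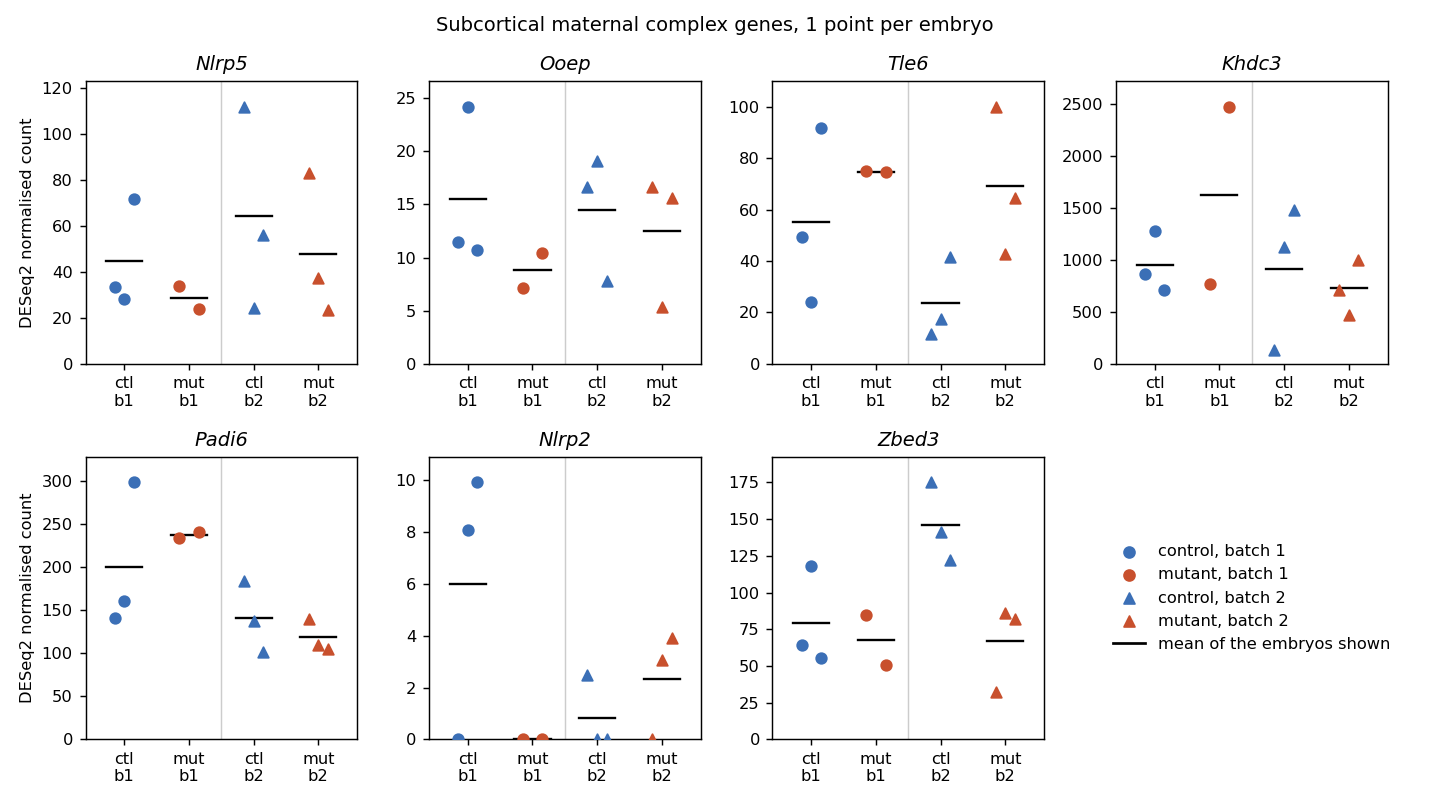
Normalised count of each member, 1 point per embryo, by group (ctl, control; mut, mutant) and batch (b1, b2), with black lines at the mean of the 2 or 3 embryos shown. In batch 2 the mutants lie above every control for *Tle6* and below every control for *Zbed3*, and in batch 1 they do not; 13.0% of all genes tested stood apart in batch 2.

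*Nlrp5*, whose loss in the mother stops her embryos at the 2-cell stage, gave 24.3 to 112 normalised counts in controls (median 44.9, n = 6), and 83.0, 37.4, 23.4, 33.8 and 23.8 in mutant embryos 1 to 5. Mutant embryo 1 was the highest of its group, and the groups overlapped. Controls averaged 54.4 ± 33.6 and mutants 40.3 ± 24.7, a log2 difference of -0.52 ± 0.47 (SE; 95% interval -1.44 to 0.40) with an adjusted p of 0.747 by DESeq2. The difference was -0.64 in batch 1 alone and -0.43 in batch 2 alone. It came to -0.20 without control embryo 1, -0.31 without control embryo 6 and -0.86 without mutant embryo 1, with no call in any of these fits. *Nlrp5* lies on chr7:23385889-23441922 (plus strand, 16 exons in its principal transcript), and RSEM placed its reads with a posterior SD of at most 2 reads per embryo. The pseudogene *Nlrp5-ps* was given 6.55 to 52.5 expected counts, so some reads could still have been divided between the copies.

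*Nlrp2* lies on the same chromosome (chr7:5298547-5351035, minus strand). Its expected counts were 3, 0, 0, 0, 6 and 12 in control embryos 1 to 6 and 0, 4, 4, 0 and 0 in mutant embryos 1 to 5. Both groups thus held embryos at 0 and embryos with reads, and the mean normalised count of 2.49 was below the minimum of 10 set for a test. A count of 0 in a library allows up to 3 reads, so an absence of *Nlrp2* was not shown in any embryo. The protocol does not mark strand, and the opposite-strand gene Gm5065 that overlaps *Nlrp2* held at most 1.01 expected counts.

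*Ooep* and *Khdc3* both lie on chromosome 9 and both encode proteins with a KH domain, a fold that binds RNA in many other proteins. *Ooep* (chr9:78376109-78378725, minus strand, 3 exons) gave 7.75 to 24.2 normalised counts in controls (median 14) and 16.6, 5.34, 15.6, 7.17 and 10.4 in mutant embryos 1 to 5. Mutant embryos 2 and 4 were below every control and the other 3 fell within the control range. Within batch 1 the controls held 11.5, 24.2 and 10.7, so that both mutants there, 4 and 5, lay below all 3 controls, while in batch 2 the groups overlapped. In batch 1 the groups stood apart in either direction for 1 of 6 members and for 23.6% of all genes tested. The log2 difference was -0.46 ± 0.58 (95% interval -1.59 to 0.68, DESeq2 adjusted p = 0.85). It was -0.80 in batch 1 alone, -0.20 in batch 2 alone and -0.25 to -0.65 with 1 embryo left out. It came to -0.25 without control embryo 5, -0.28 without mutant embryo 2, and no call was made in any of these fits.

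*Khdc3* (chr9:73101836-73104438, plus strand, 3 exons) had a coefficient of variation of 61.5% between embryos, beside 61.2% for *Nlrp5*. Controls ran from 129 to 1482 normalised counts with a median of 996, and mutant embryos 1 to 5 held 709, 470, 1000, 766 and 2476. Control embryo 1 was far below and mutant embryo 5 far above the rest, a 19.2-fold span, while the other 9 embryos of both groups mixed between 470 and 1482. The log2 difference was 0.17 ± 0.59 (95% interval -0.99 to 1.33, DESeq2 adjusted p = 0.961). Its sign was not stable: it was 0.78 in batch 1 alone, -0.33 in batch 2 alone, -0.32 without mutant embryo 5 and -0.04 without control embryo 1. A same-strand gene model that overlaps *Khdc3*, Gm20509, took at most 16 expected counts in any embryo, against 156 to 2392 for *Khdc3* itself.

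*Tle6* bridges other subunits of the complex and lies on chr10:81590904-81601073 (minus strand, 14 exons). Its normalised counts were 11.6, 17.4 and 41.7 in the batch 2 controls and 100, 42.7 and 64.4 in the batch 2 mutants, so that there all 3 mutants lay above all 3 controls. In batch 2 the groups stood apart in either direction for 2 of 6 members, *Tle6* and *Zbed3*, and for 13.0% of all genes tested (1357 of 10448). In batch 1 controls held 49.2, 24.2 and 91.7 and mutants 74.8 and 74.5, both inside the control range. Over all embryos controls averaged 39.3 ± 29.4 and mutants 71.3 ± 20.8. The log2 difference of 1.05 ± 0.45 (95% interval 0.16 to 1.94) had an unadjusted p of 0.0211 and did not pass the adjustment over all genes (DESeq2 adjusted p = 0.304, edgeR adjusted p = 0.49). Within batches it was 0.43 ± 0.60 in batch 1 and 1.55 ± 0.68 in batch 2, and the interaction of batch and group, 1.12 ± 0.91, did not pass either (DESeq2 adjusted p = 1.0).

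RSEM assigned the reads of *Tle6* to several transcript models. The gene has 14 annotated transcripts of 375 to 2015 bases, and the effective length that RSEM used ran from 405 to 1075 bases between embryos. That length is weighted by the estimated abundance of each model, so short models made up much of the estimated transcripts. Reads per model were not examined. A shorter length raises TPM for a given count. The place of *Tle6* between *Padi6* and *Zbed3* in the order of TPM depends on that length, whereas the test on counts does not use it.

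*Zbed3* (chr13:95323612-95337841, plus strand, 2 exons) showed the opposite arrangement in batch 2. The batch 2 controls held 175, 141 and 122 normalised counts and the batch 2 mutants 32.5, 86.1 and 81.9, with each of the 3 mutants under the lowest control. In batch 1 the controls held 64.0, 118 and 55.4 and the mutants 85.0 and 50.7, which overlapped. Controls averaged 113 ± 45.7 and mutants 67.2 ± 24.3. The log2 difference of -0.72 ± 0.35 (95% interval -1.41 to -0.03) had an unadjusted p of 0.0395 and an adjusted p of 0.408 by DESeq2 and 0.539 by edgeR. It was -0.21 ± 0.53 in batch 1 and -1.13 ± 0.48 in batch 2, with an interaction of -0.92 ± 0.70 (DESeq2 adjusted p = 1.0). Of all genes, 0.0382% (4 of 10472) passed the interaction test, and 0 of 6 members did, by DESeq2 or by edgeR, with 0 at an unadjusted p under 0.05.

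*Padi6* (chr4:140727355-140742643, minus strand, 16 exons) had the smallest estimated difference between groups. Controls ran from 101 to 298 normalised counts (median 151) and mutant embryos 1 to 5 held 140, 110, 105, 234 and 241. The groups covered nearly the same range. The log2 difference was -0.02 ± 0.26 (95% interval -0.54 to 0.49, DESeq2 adjusted p = 0.989).

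**Figure D3:**
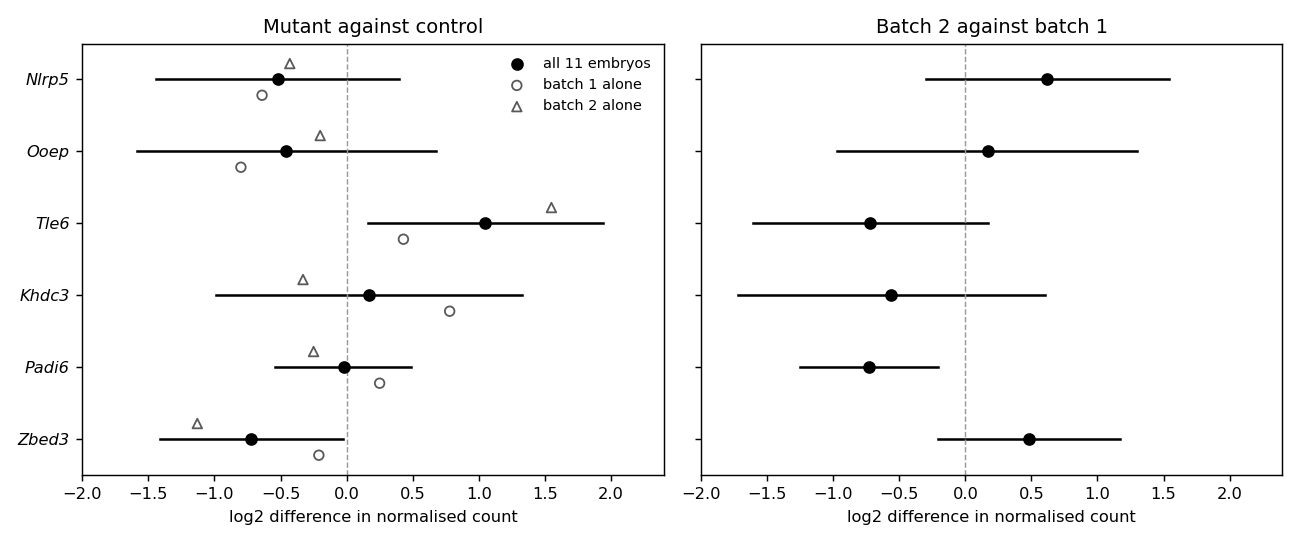
Log2 difference in normalised count of the 6 tested members, mutant against control (left, open circles batch 1 alone, open triangles batch 2 alone) and batch 2 against batch 1 (right); filled points are the estimate from all 11 embryos and bars its 95% interval. *Padi6* is centred at -0.02 between groups and at -0.73 between batches.

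Between the batches *Padi6* was the 1 member of 6 called by DESeq2, lower in batch 2, where 27.7% of all genes tested (2899 of 10448) were called in either direction. With 6 members tested, 1 call cannot be told apart from that background share. Batch 1 embryos held 141, 160, 298, 234 and 241 normalised counts and batch 2 embryos 101 to 184 with a median of 124 (n = 6). In 5 of the 6 batch 2 embryos *Padi6* was below every batch 1 embryo, the exception being control embryo 1 at 184. Means were 215 ± 63.9 and 129 ± 31.4, a log2 difference of -0.73 ± 0.26 (95% interval -1.25 to -0.21) with an adjusted p of 0.0292 by DESeq2 and 0.0564 by edgeR, so that the call was lost with edgeR. It was also lost in the control embryos alone (log2 difference -0.50, DESeq2 adjusted p = 0.477) and on leaving out any 1 of 6 embryos (control embryo 3 or 6 or mutant embryo 2, 3, 4 or 5), with adjusted p from 0.0615 to 0.122. The estimate was larger on scales that use the gene's length, at -0.95 with an effective-length offset (DESeq2 adjusted p = 0.000653) and -1.11 and -1.17 with limma on log2 TPM (adjusted p = 0.00349 and 0.00381).

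As TPM the batches separated fully for *Padi6*, with 23.0 to 31.8 in batch 1 and 8.47 to 16.4 in batch 2. It was the 1 member of 6 whose batches stood apart in TPM, as they did for 12.7% of all genes tested. The effective length used for that gene was 2259 bases, close to the whole 2333-base transcript, in 4 of the 6 batch 2 embryos. It was 1880 bases in mutant embryo 1 and 1670 in mutant embryo 3, inside the batch 1 range of 1398 to 2063 bases. A shorter length raises TPM, so the TPM values carry the length as well as the reads. Summed markers of oviduct and blood cells were 4.91 to 13.5 TPM in batch 1 and 16.7 to 153 TPM in batch 2, highest in control embryo 1. Of the 7 markers, *Ovgp1*, the oviduct glycoprotein, was called higher in batch 2 by DESeq2 (5.87 ± 1.12 on the log2 scale, adjusted p = 5.56e-06). *Lyz2*, a lysozyme of macrophages, held 0 to 3.07 normalised counts in batch 1 and 63.9 to 744 in batch 2, and made up to 121 TPM of the sum. DESeq2 gave it no p-value, and edgeR called it (adjusted p = 7.26e-05). *Cd68*, another macrophage gene, was present in all 5 batch 1 embryos (14.8 to 50.4 normalised counts) and estimated at -0.82 ± 0.46 in batch 2 (DESeq2 adjusted p = 0.202). *Pax8*, *Foxj1*, *Ptprc* and *Hbb-bs* were at 0 in every batch 1 embryo and at no more than 2.9 TPM each in batch 2. The part of these markers in the batch difference of *Padi6* was not tested.

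The other members gave no call between batches. *Nlrp5* differed by 0.62 ± 0.47 on the log2 scale (DESeq2 adjusted p = 0.366), *Zbed3* by 0.48 ± 0.35 (adjusted p = 0.345) and *Ooep* by 0.17 ± 0.58 (adjusted p = 0.877), each an estimate above 0 in batch 2. *Tle6* was at -0.72 ± 0.45 (DESeq2 adjusted p = 0.26) and *Khdc3* at -0.56 ± 0.59 (adjusted p = 0.549). The sizes moved with single embryos and with the scale. With 1 embryo left out *Khdc3* ran from -0.88 (without control embryo 3) to -0.07 (without mutant embryo 5), and it was -0.06 in the controls alone. *Tle6* ran from -0.96 (without control embryo 3) to -0.37 (without control embryo 6), and it was -0.34 with an effective-length offset and -1.22 in the controls alone. *Nlrp5* ran from 0.30 (without control embryo 1) to 0.90 (without control embryo 6) and *Zbed3* from 0.33 (without control embryo 6) to 0.73 (without mutant embryo 4). *Ooep* ran from 0.02 (without mutant embryo 4) to 0.43 (without control embryo 5). In the controls alone the estimates were 0.53 for *Nlrp5*, 0.89 for *Zbed3* and -0.10 for *Ooep*, and no call was made in any of these fits. With limma on log2 TPM (pseudocounts 1 and 0.1) the estimates were 0.21 and 0.24 for *Nlrp5*, 0.25 and 0.26 for *Zbed3* and -0.99 and -1.0 for *Khdc3*, again with no call.

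Correlations between the tested members from embryo to embryo were of both signs, and pairs of other genes were not measured beside them. After centring log2 normalised counts within batch and group, the 15 pairs of tested members had Pearson correlations from -0.76 to 0.65 over 11 embryos. The lowest was between *Tle6* and *Zbed3*, and the highest between *Nlrp5* and *Padi6*. *Khdc3* was at -0.64 with *Nlrp5* and -0.55 with *Padi6*. Control embryo 1 showed this mixture, since it held the least *Khdc3* and *Tle6* and the most *Nlrp5* and *Zbed3* of the 11. The genes most like the mean of the tested members, among 5535 with a mean normalised count above 100, were *Tomm34* (0.94), *Slc25a4* (0.94), *Inip* (0.93), *Seh1l* (0.93) and *Cacybp* (0.92). The member pairs had a median correlation of -0.18, so this mean need not follow any single member. Correlations of these genes with single members were not computed. These are descriptions over 11 embryos. At low counts, such as the 7 to 22 reads of *Ooep*, counting error weakens a correlation. Values of different genes in an embryo share 1 library, with its depth and amplification, and the genes named were picked as the highest of many.

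Proteins reported to work with the complex, namely *Nlrp14*, *Nlrp4f*, *Uhrf1*, *Dnmt1* and *Cfl1*, were all tested and none was called between groups. All 5 estimates were below 0 in mutants, with a median log2 difference of -0.59. *Dnmt1*, the maintenance DNA methyltransferase, was lowest with -1.05 ± 0.33 (DESeq2 adjusted p = 0.0761, edgeR adjusted p = 0.296). *Uhrf1*, its partner at replicating DNA, was at -0.84 ± 0.47 (DESeq2 adjusted p = 0.506), *Nlrp14* at -0.59 ± 0.31 (0.445) and *Nlrp4f* at -0.56 ± 0.63 (0.818). *Cfl1*, the actin-severing protein cofilin, was at -0.03 ± 0.15 (0.97).

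No relative of the members was called between groups. Of 10 other oocyte NLRP genes, which include *Nlrp14* and *Nlrp4f* above, 6 were tested and 0 called between groups. *Nlrp4a* was called higher in batch 2 by DESeq2, by 1.58 ± 0.58 on the log2 scale (adjusted p = 0.034), but not by edgeR (adjusted p = 0.0706). Of 16 further relatives of *Padi6*, *Tle6*, *Zbed3* and the KH-domain members, 11 were tested and 0 called between groups, with a median log2 difference of -0.03. At an unadjusted p under 0.05 there were 3 of the 11, against 11.9% of all genes tested, all with estimates above 0, named here after their values were seen. *Tle3* was at 1.38 ± 0.45 (DESeq2 adjusted p = 0.0938), *Aes*, a short Groucho relative, at 1.94 ± 0.64 (adjusted p = 0.107) and *Dppa5a* at 0.45 ± 0.16 (adjusted p = 0.144). Between batches 4 of the 11 were called by DESeq2, all higher in batch 2, where the share over all genes tested was 27.7%, and edgeR called the same genes except *Khdc1a* (edgeR adjusted p = 0.0632). These were *Tle4* (0.99 ± 0.25, DESeq2 adjusted p = 0.000852), *Zbed4* (0.87 ± 0.28, 0.0119), *Zbed5* (1.97 ± 0.66, 0.0166) and *Khdc1a* (0.78 ± 0.30, 0.0465).

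Other genes expressed in the oocyte were compared in the same way. Of 18, 12 were tested and 0 were called between groups, with 9 estimates below 0 and a median log2 difference of -0.29. The lowest was *Npm2*, an oocyte nucleoplasmin that remodels sperm chromatin, at -0.91 ± 0.34 (DESeq2 adjusted p = 0.191). The egg-coat genes *Zp1*, *Zp2* and *Zp3* were at 0.21, -0.83 and 0.16, the oocyte growth factors *Gdf9* and *Bmp15* at -0.03 and -0.45, and the linker histone *H1foo* at -0.53. *Btg4*, an adaptor for maternal mRNA decay, was at -0.44, *Oosp1* at -0.60, *Oas1d* at 0.17, *Bcl2l10* at -0.13 and *Dppa3* (Stella), a guard of maternal DNA methylation, at -0.06. Between batches 11 of these 12 estimates were above 0, and 2 of the 12 were called, against 27.7% of all genes tested. Both were higher in batch 2, *Oosp1* (2.53 ± 0.57, DESeq2 adjusted p = 0.000134) and *Dppa3* (0.43 ± 0.13, 0.00613).

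**Figure D4:**
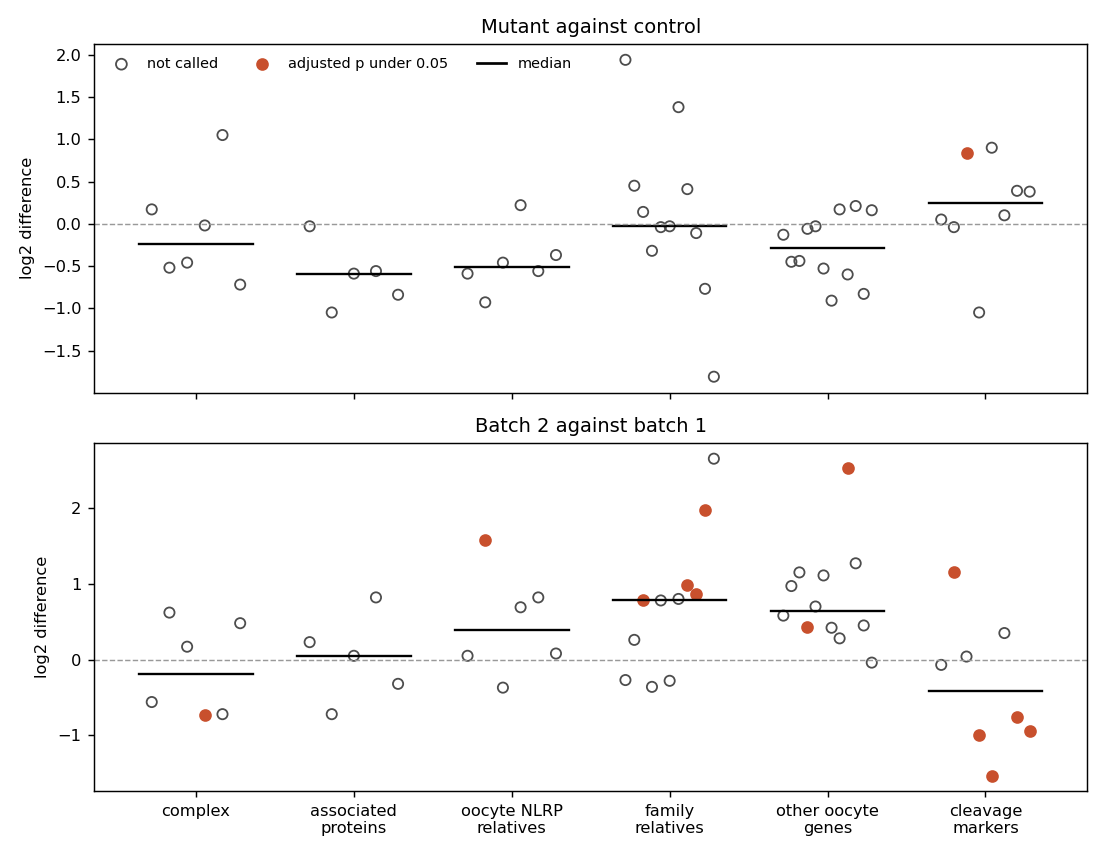
Log2 differences of tested genes by list, mutant against control (top) and batch 2 against batch 1 (bottom); filled orange points passed an adjusted p of 0.05 in DESeq2 and black lines are medians. No complex member passed in the upper panel, and *Padi6* passed below 0 in the lower panel, where the called relatives and oocyte genes are above 0.

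Genes of the cleaving embryo were measured beside the maternal ones. Of 10 cleavage-stage markers 8 were tested, and *Klf5* was the 1 called between groups, higher in mutants (0.84 ± 0.14, DESeq2 adjusted p = 1.08e-06). Of all genes tested, 1.42% were called. At an unadjusted p under 0.05 by DESeq2 there were 5 of the 8 markers, against 11.9% of all genes tested. Between batches DESeq2 called 4 of the 8 lower and 1 higher in batch 2, against 27.7% of all genes tested in either direction. The lower ones were *Pou5f1* (-1.53 ± 0.31, DESeq2 adjusted p = 1.4e-05), *Tfap2c*, *Tead4* and *Nanog*, and the higher one was *Klf4*. All but *Nanog* (edgeR adjusted p = 0.0734) were also called by edgeR. Their part in the batch difference of *Padi6* was not tested. Of 8 genes of the 2-cell stage, 1 was testable, and together they summed to 0.77 to 16.2 TPM. Markers of the cumulus and granulosa cells that surround the oocyte summed to 0 to 1.11 TPM in controls. In mutants they summed to 8.33 TPM in mutant embryo 2, of which *Inha* gave 7.83, and to 0 to 0.3 TPM in the other 4, and *Foxl2*, *Has2* and *Ptx3* were at 0 in all 11 embryos.

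Library totals were 3534735 to 7195942 expected counts in controls and 5402858 to 8265840 in mutants, and no pair of libraries was close enough to be a duplicate. *Prdm10* itself gave 236 ± 85.2 normalised counts in controls and 151 ± 39.4 in mutants (log2 difference -0.66 ± 0.26, DESeq2 adjusted p = 0.216). Its gene-level count covers all exons, so the deletion of 1 exon is not read from it. The normalised counts overlapped, at 124 to 381 in controls and 104 to 202 in mutants. As TPM the groups did not overlap, with 11.1 to 24.8 in controls and 4.88 to 8.16 in mutants. TPM divides by the effective length, which was itself apart, 2565 to 3357 against 4348 to 5051 bases, so these values carry the length as well as the reads.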

How the data were processed

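Smart-seq2 libraries of 11 single 8-cell embryos were analysed, 6 control and 5 mutant, in 2 batches. Per the submitters' processing notes the authors mapped reads with STAR (version 2.6.0c) to GRCm38.p6 and quantified genes with RSEM. Each deposited table holds, for every gene, an expected count (often fractional, since RSEM splits shared reads), TPM and FPKM values, an effective length and a posterior SD of the count, a score of how firmly reads were placed. The authors' deposited comparison table (mean normalised count, log2 fold change, standard error, Wald statistic, p-value and adjusted p-value) was not used. There were no molecular identifiers, so PCR copies counted as reads and count floors cover counting error only.

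Expected counts were rounded and tested with DESeq2 (version 1.42.0, R version 4.3.3), with batch and group as terms, Wald tests and unshrunken log2 differences. Benjamini-Hochberg adjustment ran over the genes that DESeq2's own filters kept. Of these, genes whose mean normalised count exceeded 10 were counted as tested, and calls had an adjusted p under 0.05. The batch coefficient and, in another fit, the batch by group interaction were tested alike. The p-values measure the spread between these embryos, whose litters are not given in the labels. Group and batch came from the labels, and replicates were numbered in listing order, so the numbers pair no embryos. Alternatives were edgeR (version 4.0.16) quasi-likelihood tests, limma (version 3.58.1) on log2(TPM + 1) and log2(TPM + 0.1), TMM factors, other count filters, no Cook's filter, an effective-length offset, no batch term, each batch or the controls alone, and each embryo left out. The scripts were tested on simulated data.

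The members and lists were chosen with earlier results of these data known. Named genes were the 7 members, *Prdm10*, list genes called in any test, all proteins associated with the complex and other oocyte genes above the same mean normalised count, and the 5 genes most correlated with the members. *Tle3*, *Aes*, *Dppa5a*, *Lyz2*, *Cd68*, *Inha* and the marker genes named at 0 were named after their values were seen. Gene models and 3′ ends came from GENCODE vM21, whose identifiers for the 7 members matched those of the files.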

Additional observations from a re-analysis of the deposited data

Results flagged for a closer look

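In the mutant group of 5 embryos, *Nlrp5* in mutant embryo 1 stood apart at 83.0 normalised counts, against 23.4 to 37.4 in the other 4. *Khdc3* in mutant embryo 5 stood apart at 2476 normalised counts, against 470 to 1000 in the other 4. Each was marked because its gap to the nearest embryo of the group, as a share of the group's range, passed Dixon's 95% limit. The test was made on 14 groups of values (7 genes in 2 groups) and marked 2, and chance marks about 1 in 20.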

How the results depend on the processing

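No member was called between groups under any of 23 alternatives, and none in the interaction test under 20. The settings with no filter on the mean normalised count, and with a minimum of 100, reused the adjusted p of the main fit. They could therefore not turn the result of a tested member into a call. The number of all genes called between groups, 148, was 35 with edgeR, 22 and 21 with limma (pseudocounts 1 and 0.1), 51 with no batch term, 78 in batch 1 alone, 48 in batch 2 alone, and 86 to 264 with 1 embryo left out (264 without control embryo 2, 86 without mutant embryo 2, 91 without mutant embryo 5). Between batches, 2899 calls became 1493 in the controls alone, where fewer embryos were fitted, and the 1 member called, *Padi6*, became 0 with edgeR and in the controls alone, and 0 to 1 with 1 embryo left out. Its log2 difference between batches stayed below 0 throughout, from -1.17 to -0.50, with adjusted p from 0.000653 to 0.477. Signs that turned belonged to differences near 0. *Padi6* between groups became 0.03 with limma at either pseudocount, 0.02 with an effective-length offset and 0.25 in batch 1 alone, and ranged from -0.13 to 0.13 with 1 embryo left out. *Khdc3* between groups became -0.33 in batch 2 alone and ranged from -0.32 to 0.49. *Ooep* between batches became -0.04 and -0.09 with limma and -0.10 in the controls alone. The cause was not tested. No paired analysis was possible because the replicate numbers follow listing order only. *Nlrp2* was below the filter on the mean normalised count and has no result here.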
